A study of Caenorhabditis elegans with 6 samples.

Results

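The genes described here are the Hedgehog-related ligands and the patched-related genes of Caenorhabditis elegans. They are every row of the count table whose WormBase symbol is wrt-, grd-, grl-, hog- or ptr- followed by a number. This rule uses names only, and it was chosen with earlier results of these data known. The rule found 82 genes among 46756 gene identifiers: 10 Warthog (wrt), 16 Groundhog (grd), 31 Ground-like (grl) and 24 patched-related (ptr) genes, and hog-1. All 82 are protein-coding in the annotation used. RNA was measured by poly(A)-selected RNA sequencing of whole hermaphrodites on adulthood day 2, to ask how the company of other hermaphrodites alters gene expression. The 6 libraries are 3 from worms kept 10 per plate and 3 from worms kept alone, called solitary, and the labels name both sets biological replicates without saying what was separate between them, so that p-values measure the spread between these libraries. All 6 libraries come from strain ACH93, grown on Escherichia coli OP50 at 20 °C. In both conditions this strain carries 2 integrated transgenes driven by the muscle promoter myo-3, 1 for an RPN-5 proteasome subunit fused to wrmScarlet and 1 for a GFP targeted to the outer mitochondrial membrane, and both therefore mark body wall muscle. How many worms were pooled per library is not given in the sources used here.

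C. elegans has no canonical Hedgehog and no Smoothened, yet it keeps a large set of proteins related to both ends of the pathway. Warthog, Groundhog and Hog proteins share with Hedgehog the autoprocessing Hog domain in some members, preceded by family-specific secreted domains, and Ground-like proteins carry a domain related to that of the Groundhogs without Hog. The patched-related proteins resemble Patched, Dispatched and NPC1, membrane proteins with a sterol-sensing domain. In C. elegans many of these genes are expressed in the epidermis and in glia, take part in building the apical extracellular matrix and the cuticle, and are transcribed in cycles that follow the larval molts.

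Each library held between 55176436 and 62794403 counts assigned to genes, with 20105 to 20701 genes at 1 count or more, and the 82 genes took 35560 to 40509 of them. Replicates of a condition differed by far more than counting noise (chi-square per degree of freedom 5.93 to 23.1), so none is a library deposited more than once. Across 10474 well-counted genes the log2 fold change between conditions went with transcript length (Spearman's rho 0.484, a description across genes, which are not independent), and values with that trend removed are given for group medians and part of the genes. Solitary library 3 stood apart in genes of molting and larval cuticle. The 16 genes of that list averaged 1.05 below the mean of their condition in it, on the scale of log2(CPM + 0.1), where CPM is a gene's count rate relative to the TMM-scaled total of its library. Markers listed for epidermis, glia, embryo, germline, intestine, muscle, neuron, pharynx and excretory canal were all detected. The bar was low, as it asked only that a gene found in the table not be at 0 in all libraries. The glia list includes the members ptr-10, grl-2 and grl-18. In whole worms, fewer cells of a type and less RNA per cell cannot be told apart.

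Levels, given as TMM-scaled CPM per kilobase of exon so that genes of different length can be set side by side, were dominated by 1 gene. ptr-2 averaged 153 over the 6 libraries, 54.8% of the sum of 280 over all members and above 95.5% of all tested genes. It lies on chromosome I at 3789309 to 3792797, minus strand, in assembly WBcel235, which holds for all positions below. After it came grd-3 at 21.4, grd-5 at 20.2, wrt-5 at 12.9, ptr-21 at 11.6, ptr-24 at 10.3 and grl-4 at 8.78, followed by wrt-10 at 4.50, ptr-23 at 2.97 and ptr-13 at 2.81. These 10 genes held 88.8% of the members' sum. At the other end, 25 members averaged under 10 raw counts per library, 37 between 10 and 100, 17 between 100 and 1000, and only 3 more than 1000. A count was present in every library for 64 members and was 0 in at least 1 library for 18.

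Summed by family, the patched-related genes stood at 197 ± 7.48 CPM per exonic kilobase in worms kept 10 per plate and 193 ± 6.61 in solitary worms (SD, n = 3 each). The Groundhogs summed to 33.9, 46.4 and 51.3 in the 3 libraries of 10 worms per plate, against 48.9, 49.3 and 52.5 in the solitary libraries, so that library 1 of the 10-worm plates lay below the other 5. The Ground-like genes summed to 17.3 ± 4.09 in worms kept 10 per plate and 18.3 ± 2.92 in solitary worms. For the Warthogs the sums were 19.4 ± 0.452 in worms kept 10 per plate and 19.6 ± 2.35 in solitary worms. No family sum separated the conditions beyond the spread between libraries.

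**Figure D1:**
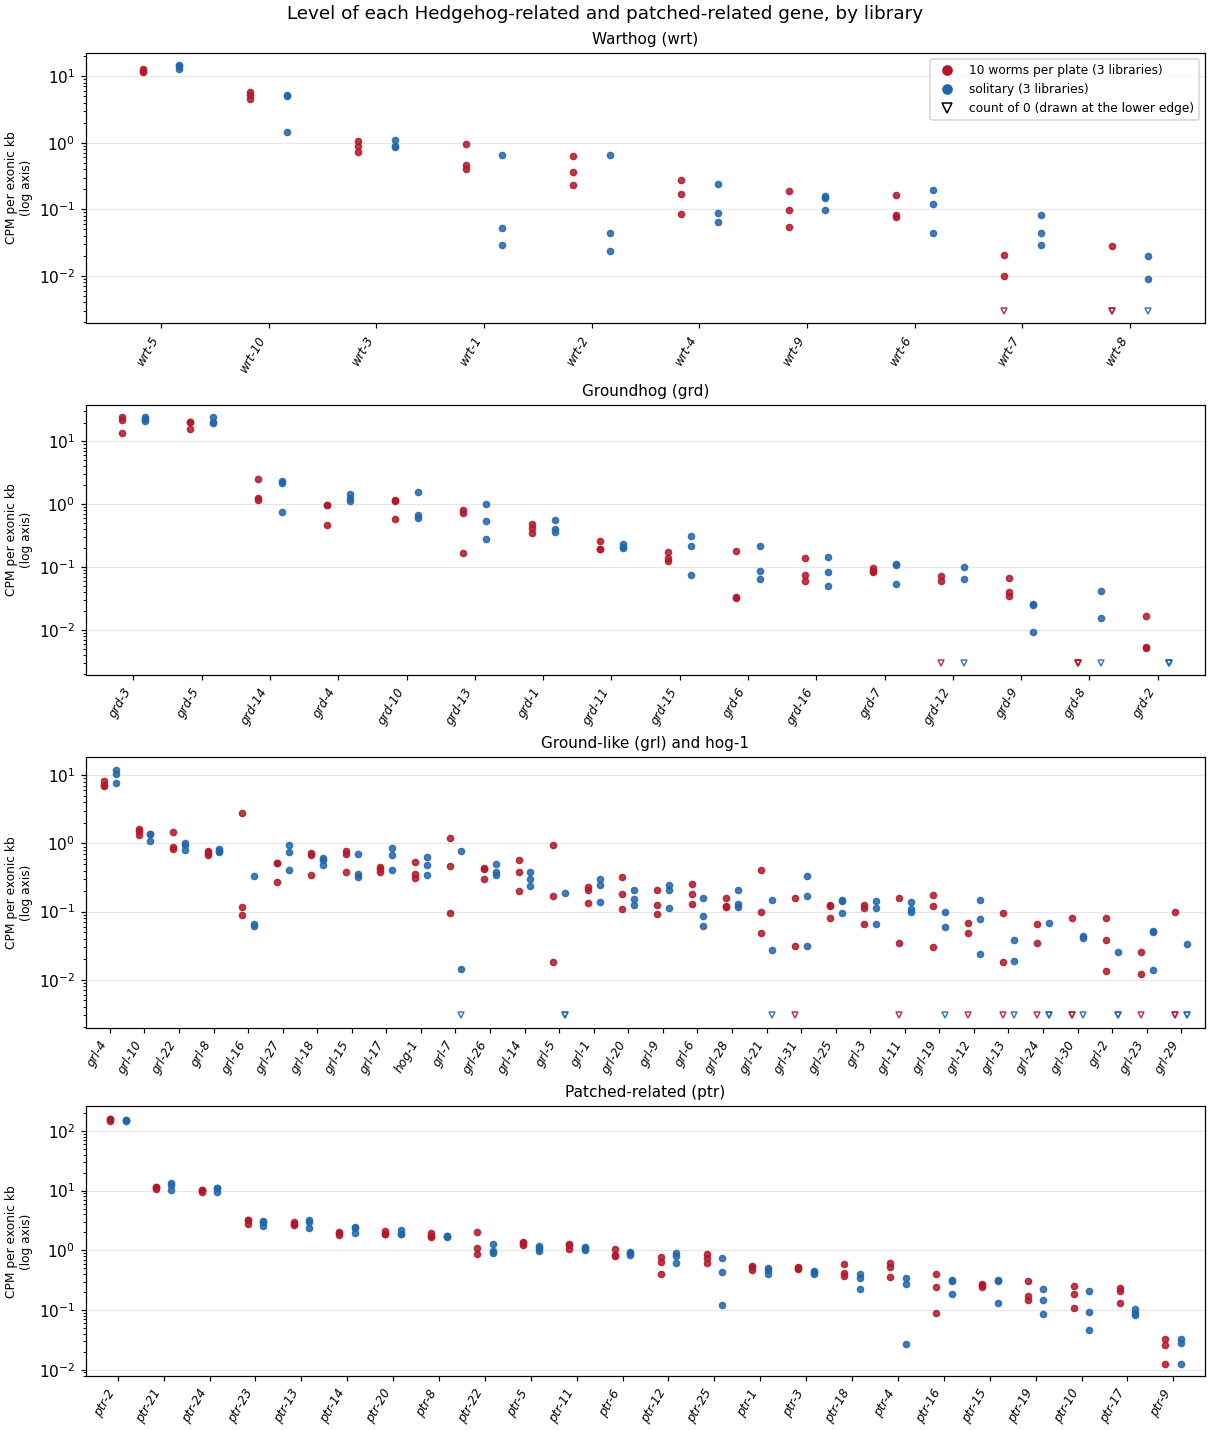
Level of each gene in each library as TMM-scaled CPM per kilobase of exon (vertical log axis), in 4 panels by family, for worms kept 10 per plate (red, 3 libraries) and solitary worms (blue, 3 libraries), with open triangles at the lower edge for a count of 0. ptr-2, at 155 in worms kept 10 per plate against 152 in solitary worms, stands above every other gene shown, and the points of the conditions overlap for most genes.

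Of the 82 genes, 75 reached the minimum of 10 counts summed over the 6 libraries and were tested with all other genes. The untested genes were grd-2, grd-8, grl-13, grl-24, grl-29, grl-30 and wrt-8. They had between 4 and 9 counts in all. None of the 75 was called at an adjusted p under 0.05 in edgeR (quasi-likelihood F test, p-values adjusted by Benjamini-Hochberg over 18428 genes), which called 44 genes (0.239%), 2 of them (0.0109%) with a log2 fold change of more than 1 in size. The smallest adjusted p among members was 0.221. At an unadjusted p under 0.05 there were 5 members, against 11.9% of all tested genes. These were ptr-17, higher in worms kept 10 per plate (against 5.19% of all tested genes), and grl-4, wrt-7, grd-4 and wrt-5, lower in them (against 6.71%). With the length trend removed, edgeR's unadjusted p was 0.0599 for grl-4, 0.0674 for grd-4 and 0.149 for wrt-5. It stayed under 0.05 for ptr-17 and wrt-7. DESeq2 called 0 members and gave 3 at an unadjusted p under 0.05. It gave no adjusted p for part of the members, ptr-17, wrt-7 and grd-4 among them, so these could not be called. The count of 5 moved to 1 without library 1 of the 10-worm plates, to 2 without solitary library 1 and to 13 without solitary library 2, and 1 member, grl-4, was called without solitary library 3, where 391 genes were called in all.

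The 3 libraries of 1 condition lay wholly above those of the other for 8 of the 75 tested members, 5 of them higher in worms kept 10 per plate (ptr-17, ptr-5, ptr-4, ptr-3 and grd-9) and 3 lower (wrt-7, grd-4 and wrt-5), while 18.3% of all tested genes did so, 8.51% higher and 9.83% lower. The median log2 fold change, as 10 worms per plate over solitary throughout, was -0.03 for the 75 members and 0.00 for all tested genes. The median size of the change, sign ignored, was 0.28 for members and 0.13 for all genes. The members were also lower in counts, at a median mean count of 34.3 against 203 for all genes.

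Ligands and patched-related genes differed in the sign of their medians. Among the 51 tested ligand genes 20 had a positive and 31 a negative log2 fold change (median -0.11), and among the 24 patched-related genes 16 were positive and 8 negative (median 0.06). The median exon length was 1031 bases for the ligands and 2976.5 for the patched-related genes, and with the length trend removed the medians were -0.03 for the ligands and 0.00 for the patched-related genes.

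**Figure D2:**
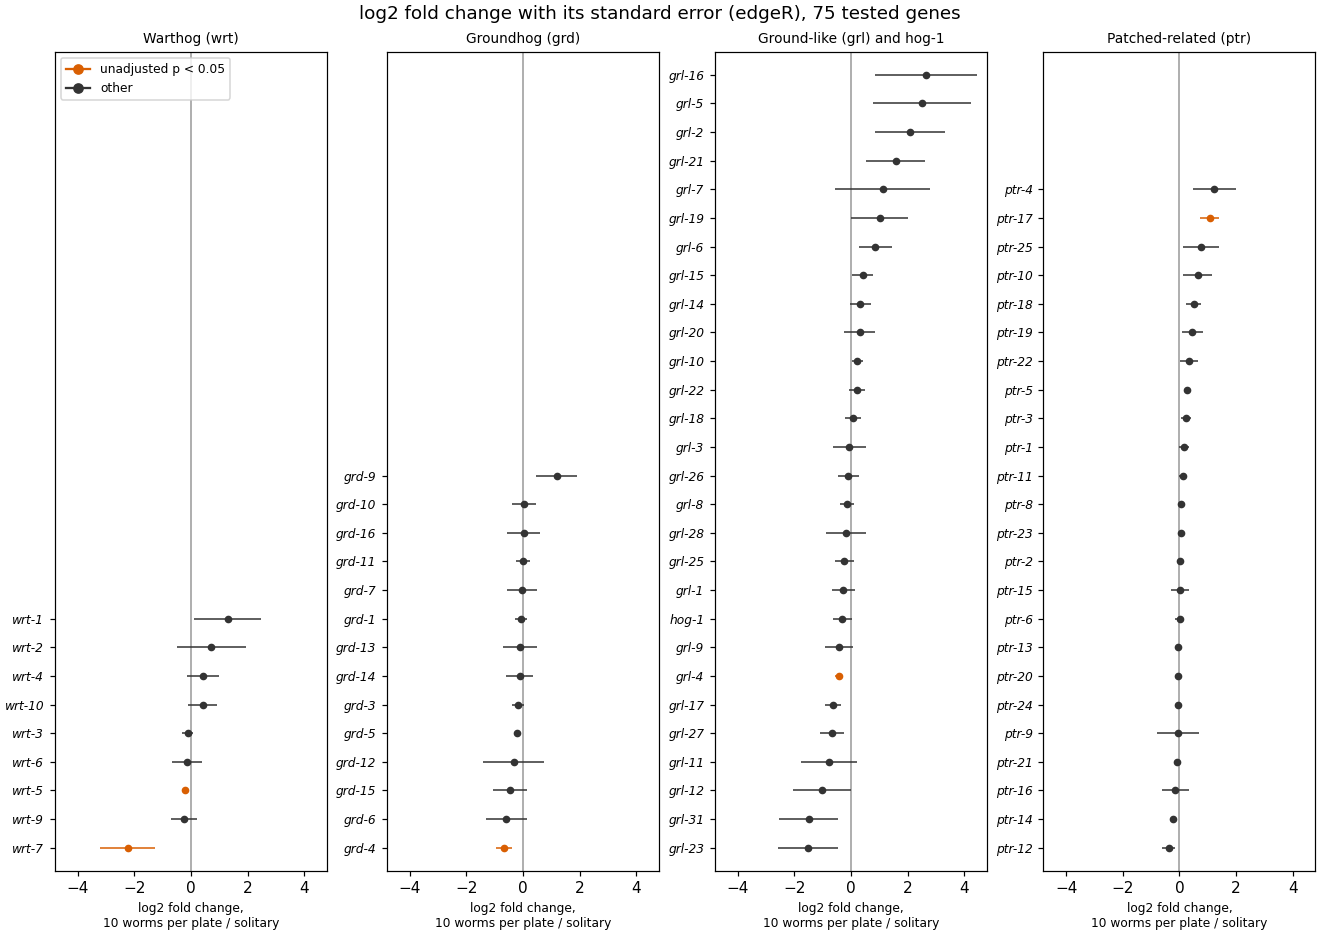
log2 fold change of 10 worms per plate over solitary (horizontal axis) for the 75 tested genes, sorted within each family. Bars are the standard error computed from edgeR's F, and orange marks an unadjusted p under 0.05. Fold changes ran between -2.23 (wrt-7) and 2.66 (grl-16), the widest bars belong to grl-16, grl-5 and grl-7, and no gene passed the adjusted threshold.

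Among the Warthogs, secreted ligands of which several are made by the epidermis, wrt-5 had the highest level. WRT-5 acts in embryonic morphogenesis, and the gene lies on chromosome IV at 4050006 to 4051639, minus strand. It had 576, 603 and 554 counts in worms kept 10 per plate, against 639, 631 and 664 in solitary worms. The levels were 11.95 ± 0.557 in worms kept 10 per plate and 13.9 ± 0.893 CPM per exonic kilobase in solitary worms (SD, n = 3 each), without overlap, a log2 fold change of -0.21 ± 0.09 (SE; edgeR adjusted p = 0.402), or -0.14 with the length trend removed. The difference is small and missed the threshold, also with the length trend removed (edgeR adjusted p = 0.782). wrt-5 varied little between libraries, and its unadjusted p was under 0.05 in 6 of 14 settings of the analysis.

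wrt-10 had 402, 300 and 344 counts in worms kept 10 per plate, against 316, 342 and 96 in solitary worms. Solitary library 3 was alone in being low, and the log2 fold change was 0.41 ± 0.50 (SE; edgeR adjusted p = 0.821), or 0.021 without that library. wrt-3 had 133, 156 and 103 counts in worms kept 10 per plate against 116, 166 and 129 in solitary worms, ranges that overlap. wrt-6 had 10, 9 and 19 counts in worms kept 10 per plate against 13, 23 and 5 in solitary worms, again lowest in solitary library 3.

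wrt-1 showed another order of libraries. It had 43, 48 and 99 counts in worms kept 10 per plate, against 5, 69 and 3 in solitary worms. Solitary library 2 lay among the 10-worm libraries and the other solitary libraries far under all of them. The log2 fold change was 1.29 ± 1.17 (SE; edgeR adjusted p = 0.752), and without solitary library 2 it was 3.86 (adjusted p = 0.0769). Without solitary library 3 it was 0.77 (edgeR adjusted p = 0.815), the lowest value on leaving out a library. wrt-2, singled out after its values were seen, had 35, 21 and 57 counts in worms kept 10 per plate against 2, 62 and 4 in solitary worms, again with solitary library 2 far above the other solitary libraries. Its log2 fold change was 0.72 ± 1.21 (SE; edgeR adjusted p = 0.876), and 3.51 without solitary library 2 (adjusted p = 0.116).

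wrt-7 was close to the limit of detection, with 0, 1 and 2 counts in worms kept 10 per plate against 4, 3 and 8 in solitary worms. The pooled counts of 3 in worms kept 10 per plate against 15 in solitary worms gave a ratio of 0.193 (95% exact counting interval 0.0358 to 0.682, which covers counting error only), and edgeR's adjusted p was 0.387.

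The Groundhogs held the most abundant ligand transcripts. grd-3, on chromosome IV at 3439655 to 3440453, plus strand, had 594, 898 and 987 counts in worms kept 10 per plate, against 842, 902 and 982 in solitary worms. Only the first library of the 10-worm plates was lower than the solitary ones, and the log2 fold change was -0.18 ± 0.20 (SE; edgeR adjusted p = 0.789), or -0.09 with the length trend removed. grd-5 had 504, 636 and 622 counts in worms kept 10 per plate against 591, 633 and 744 in solitary worms. Its log2 fold change of -0.21 ± 0.13 (SE; edgeR adjusted p = 0.560) was -0.06 with the length trend removed.

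grd-4, on the X chromosome at 8501222 to 8502288, plus strand, had 22, 45 and 44 counts in worms kept 10 per plate, against 53, 68 and 51 in solitary worms. The conditions did not overlap, at 0.810 ± 0.301 in worms kept 10 per plate and 1.29 ± 0.159 CPM per exonic kilobase in solitary worms (SD, n = 3 each). The log2 fold change was -0.67 ± 0.29 (SE; edgeR adjusted p = 0.394), or -0.59 with the length trend removed (adjusted p = 0.731). Its neighbour grd-14, which ends 184 bases upstream on the same strand, had another pattern, with 43, 45 and 87 counts in worms kept 10 per plate against 71, 86 and 26 in solitary worms. grd-9, at few counts, had 5, 8 and 4 in worms kept 10 per plate against 1, 3 and 3 in solitary worms. Its pooled ratio of 2.34 had a 95% exact counting interval of 0.923 to 6.68.

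Of the 14 tested Groundhogs 11 had a negative fold change and 3 a positive one, with a median of -0.11, or -0.06 with the length trend removed. The 12 epidermis markers went both ways, 5 positive and 7 negative with a median log2 fold change of -0.02, and 0 were called. Their summed CPM was 1519 to 1945 in the 10-worm libraries and 2047 to 2260 in the solitary libraries, carried by the adult cuticle collagens col-19, col-119 and col-140 (log2 fold changes of -0.35, -0.30 and -0.34, with edgeR adjusted p of 0.434, 0.324 and 0.249). The epidermal transcription factors elt-1 and lin-26 lay higher in worms kept 10 per plate, also without overlap (log2 fold changes of 0.22 and 0.10). These 5 markers are named after their values were seen. Their part in the ligands' values was not tested.

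The Ground-like family was led by grl-4, on chromosome IV at 7309838 to 7310760, minus strand. It had 357, 353 and 401 counts in worms kept 10 per plate, against 461, 605 and 371 in solitary worms. Levels were 7.51 ± 0.709 in worms kept 10 per plate and 10.04 ± 2.19 CPM per exonic kilobase in solitary worms (SD, n = 3 each). Solitary library 3 overlapped the 10-worm libraries. The log2 fold change was -0.42 ± 0.16 (SE; edgeR adjusted p = 0.318), or -0.35 with the length trend removed (adjusted p = 0.731). The adjusted p was 0.0384 without solitary library 3 and 0.0369 with no minimum on counts, settings that called 391 and 745 genes in all against 44. Without any other single library it was 0.413 to 0.635, and the log2 fold change was -0.27 without solitary library 2. grl-17 was also lowest of the solitary libraries in solitary library 3, with 37, 34 and 30 counts in worms kept 10 per plate against 63, 55 and 32 in solitary worms, and a log2 fold change of -0.63 ± 0.29 (SE; edgeR adjusted p = 0.423).

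Other well-measured genes of the family overlapped between conditions. grl-8 had 32, 33 and 35 counts in worms kept 10 per plate against 33, 39 and 34 in solitary worms, among the most even of the family. grl-18, whose reporter marks socket glia of the inner labial sensilla, had 59, 61 and 28 counts in worms kept 10 per plate against 43, 52 and 40 in solitary worms. grl-10 had 92, 76 and 92 counts in worms kept 10 per plate against 72, 64 and 77 in solitary worms, with a log2 fold change of 0.23 ± 0.19 (SE; edgeR adjusted p = 0.704).

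A further set of Ground-like genes varied widely within each condition. grl-7, whose product is an apical matrix protein cleared with the help of PTR-18, had 7, 33 and 84 counts in worms kept 10 per plate, against 0, 56 and 1 in solitary worms. Solitary library 2 again lay among the 10-worm libraries, and the log2 fold change of 1.12 ± 1.68 (SE; edgeR adjusted p = 0.862) was 5.99 without it. Leaving out each library in turn gave log2 fold changes of 0.060 to 5.99 for grl-7. grl-21, described as a partner of PTR-24 in lipid storage, had 2, 4 and 16 counts in worms kept 10 per plate against 1, 6 and 0 in solitary worms, with a log2 fold change of 1.58 ± 1.06 (SE; edgeR adjusted p = 0.615) that was 0.30 without library 3 of the 10-worm plates and 3.50 without solitary library 2. grl-5 and grl-16 were singled out after their values were seen. grl-5 had 1, 9 and 49 counts in worms kept 10 per plate against 0, 10 and 0 in solitary worms.

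grl-16 had 12, 9 and 272 counts in worms kept 10 per plate against 6, 34 and 6 in solitary worms. Its log2 fold change, the highest of all members at 2.66 ± 1.79 (SE; edgeR adjusted p = 0.656), goes with library 3 of the 10-worm plates, which stands far above the other 5. grl-2, a reporter gene of socket glia and of the excretory duct and pore, had 3, 1 and 6 counts in worms kept 10 per plate against 0, 2 and 0 in solitary worms, a pooled ratio of 4.82 (95% exact counting interval 1.03 to 45.2; edgeR adjusted p = 0.547). hog-1, a Hog-domain gene, had 18, 20 and 29 counts in worms kept 10 per plate against 25, 36 and 19 in solitary worms, with a log2 fold change of -0.30 ± 0.34 (SE; edgeR adjusted p = 0.792), which was -0.55 without library 3 of the 10-worm plates and -0.074 without solitary library 2.

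The patched-related genes were better counted, with a median mean count of 151 against 17.3 for the tested ligands. ptr-2 had 28989, 25759 and 26527 counts in worms kept 10 per plate, against 24018, 27264 and 25313 in solitary worms. This is 155 ± 5.96 in worms kept 10 per plate and 152 ± 2.38 CPM per exonic kilobase in solitary worms (SD, n = 3 each), and the log2 fold change was 0.03 ± 0.04 (SE; edgeR adjusted p = 0.831), turning to -0.02 with the length trend removed. ptr-21 had 2392, 2119 and 2323 counts in worms kept 10 per plate against 2471, 2548 and 2037 in solitary worms. ptr-24, described with GRL-21 in lipid storage and mitochondrial dynamics, had 1908, 1692 and 1790 counts in worms kept 10 per plate against 1787, 1961 and 1629 in solitary worms, with a log2 fold change of -0.05 ± 0.07 (SE; edgeR adjusted p = 0.848), or -0.11 with the length trend removed. For these 3 abundant transcripts the conditions overlapped and the standard errors were under 0.1.

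ptr-17, on chromosome I at 12835115 to 12843331, plus strand, had the smallest p of all members. It had 37, 22 and 39 counts in worms kept 10 per plate, against 14, 14 and 17 in solitary worms. The levels were 0.192 ± 0.0546 in worms kept 10 per plate and 0.0916 ± 0.0109 CPM per exonic kilobase in solitary worms (SD, n = 3 each), and every 10-worm library lay above every solitary one. The log2 fold change was 1.06 ± 0.33 (SE), with an unadjusted p of 0.00707 and an edgeR adjusted p of 0.221. The unadjusted p stayed under 0.05 in 14 of 14 settings of the analysis. These settings reuse the same libraries and ptr-17 was named for its small p, so this is no separate support. Over the edgeR settings its adjusted p ran from 0.102 (no count minimum) to 0.645 (length trend removed).

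ptr-5 had 285, 252 and 281 counts in worms kept 10 per plate against 207, 247 and 196 in solitary worms, with a log2 fold change of 0.28 ± 0.13 (SE; edgeR adjusted p = 0.426), or 0.21 with the length trend removed. ptr-3, singled out after its values were seen, had 92, 89 and 92 counts in worms kept 10 per plate against 72, 74 and 79 in solitary worms, and 0.22 ± 0.18 (SE; edgeR adjusted p = 0.675). Both sets of libraries were apart, by little.

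ptr-4 and ptr-18 act in the apical matrix that precedes the cuticle, PTR-18 in clearing GRL-7 from it. ptr-4 had 102, 66 and 113 counts in worms kept 10 per plate, against 46, 65 and 5 in solitary worms. After scaling, all 10-worm libraries lay above the solitary ones, yet solitary library 3 stood at 0.0857 CPM beside 0.846 and 1.07 in the other solitary libraries, and the log2 fold change was 1.22 ± 0.76 (SE; edgeR adjusted p = 0.620). ptr-18 had 68, 74 and 105 counts in worms kept 10 per plate against 37, 73 and 60 in solitary worms, with overlap and a log2 fold change of 0.50 ± 0.26 (SE; edgeR adjusted p = 0.491). ptr-10, whose reporter marks glia, had 46, 32 and 19 counts in worms kept 10 per plate against 15, 37 and 8 in solitary worms. ptr-25, named after its values were seen, had 210, 172 and 141 counts in worms kept 10 per plate against 160, 106 and 28 in solitary worms, so solitary library 3 was again the lowest.

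The order of libraries was shared by many members. Among the 57 members with a mean count of at least 10, library 3 was the highest of the 10-worm libraries for 40 (70.2%, against 31.6% of the 14924 genes with that count), and solitary library 2 the highest of the solitary ones for 30 (52.6%, against 31.0%). Both held for 22 members (38.6%, against 9.98% of genes), among them wrt-1, wrt-2, grl-5, grl-7, grl-16, ptr-4, ptr-18 and hog-1. These shares are descriptions of the libraries, since the members are not replicates of a condition.

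A second pattern was a low value in solitary library 3. It was the lowest solitary library for 34 of the 57 members (59.6%, against 40.6% of genes), and it stood under 0.5 of both other solitary libraries for 7 (12.3%, against 2.09%): ptr-4, ptr-25, wrt-10, grd-14, wrt-6, ptr-15 and ptr-10. Solitary library 2 stood above 2 times both others for 9 members (15.8%, against 1.25%). The shares of genes given for these patterns are not matched to the members' counts.

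Genes of molting and larval cuticle, a list apart from the members, were mostly low in solitary library 3 too. Of its 16 genes, 12 were lowest there among the solitary libraries, against 40.6% of the 14924 genes with a mean count of at least 10. For 8 of the 16 it was under 0.5 of both others (against 2.09% of genes). The first pattern, highest in library 3 of the 10-worm plates and in solitary library 2, held for 4 of the 16 (against 9.98% of genes). In the list, library 1 was the highest of the 10-worm libraries for 9 genes and solitary library 1 the highest of the solitary ones for 9. The genes of the list given next were chosen after their values were seen. mlt-11, a protease inhibitor needed for molting, had 671, 616 and 561 counts in worms kept 10 per plate against 526, 642 and 81 in solitary worms. dpy-7, a collagen of the cuticle furrows, had 179, 155 and 178 counts in worms kept 10 per plate against 139, 270 and 12 in solitary worms. rol-6, another collagen, had 1, 4 and 154 counts in worms kept 10 per plate against 3, 135 and 4 in solitary worms, highest in library 3 of the 10-worm plates and in solitary library 2 as grl-5, grl-7 and wrt-2 were.

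All 16 genes of the molting list had a positive fold change (median 0.24; 15 of 16 with the length trend removed), against 9321 of the 18428 tested genes. Of the 16, 0 were called by edgeR and 1 was at an unadjusted p under 0.05. Their summed CPM was 209 to 223 in the 10-worm libraries. It was 203, 200 and 126 in solitary libraries 1, 2 and 3, so solitary library 3 alone was far lower. The part of these genes in the values of wrt-1, wrt-10, ptr-4, grl-7 and the others was not tested. Embryo genes, which whole gravid adults also carry, summed to 14.2 to 17.2 CPM in the 10-worm libraries and 13.4 to 15.7 in the solitary ones, with 4 of 8 positive.

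**Figure D3:**
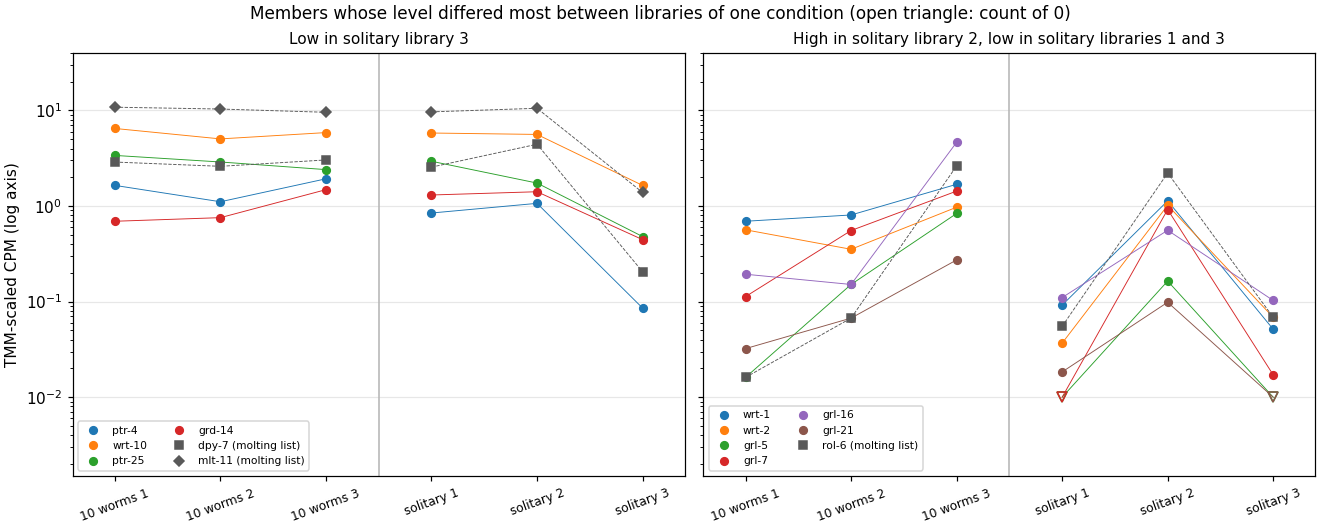
TMM-scaled CPM (vertical log axis) in each of the 6 libraries, left panel for 4 members that are low in solitary library 3, right panel for 6 members that are high in solitary library 2, with genes of the molting list in grey for comparison, open triangles for a count of 0, and thin lines that only join values of 1 gene within a condition. ptr-4 has 5 counts and dpy-7 has 12 in solitary library 3, and rol-6, grl-7 and wrt-2 are each highest in library 3 of the 10-worm plates and in solitary library 2.

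The spread between libraries of 1 condition was wide for part of the members. Measured as the pooled within-condition SD of log2(CPM + 0.1), it had a median of 0.350 for the 57 members with a mean count of at least 10, against 0.128 for all such genes. It was above 1 for 6 members (10.5%, against 0.864% of genes): grl-16 at 1.82, grl-7 at 1.66, wrt-2 at 1.26, wrt-1 at 1.25, grl-5 at 1.22 and ptr-4 at 1.06. The lowest was ptr-2 at 0.04.

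Low counts widen the spread of any gene, so genes of like count were set beside the members. At a mean count of 10 to 30 the median was 0.444 for 14 members and 0.343 for other genes, and at 30 to 100 it was 0.429 for 23 members and 0.256 for others. At 100 to 300 it was 0.190 for 8 members and 0.181 for others, and at 300 to 1000 it was 0.170 for 9 members and 0.127 for others. All 6 members with an SD above 1 averaged under 100 counts. At 10 to 30 counts the SD was above 1 for 1 of 14 members, against 1.72% of other genes. At 30 to 100 counts it was above 1 for 5 of 23 members, against 2.20% of others.

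**Figure D4:**
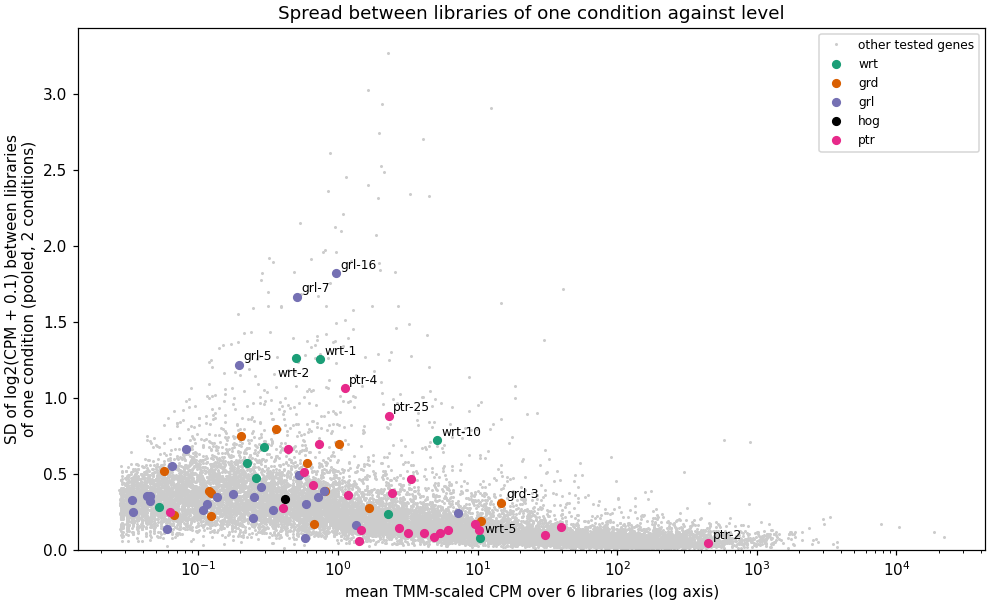
Pooled within-condition SD of log2(CPM + 0.1) (vertical axis) against mean TMM-scaled CPM over the 6 libraries (horizontal log axis) for tested genes, the members coloured by family and the others in grey. grl-16, grl-7, wrt-2, wrt-1, grl-5 and ptr-4 lie above 1, while ptr-2 lies at 0.04.

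Other genes related to the pathway were taken from a list of 15, of which 13 were found in the table under their symbols and tested. Of these, 12 had a positive fold change and 1 a negative one, with a median of 0.18 and 0 called by edgeR, and 2 were at an unadjusted p under 0.05. With the length trend removed 10 were positive and 3 negative, with a median of 0.08. che-14, a Dispatched-related gene of apical secretion, had 84, 68 and 59 counts in worms kept 10 per plate against 48, 39 and 44 in solitary worms, without overlap, with a log2 fold change of 0.62 ± 0.22 (SE; edgeR adjusted p = 0.301). scp-1, a homolog of the sterol sensor SCAP, had 6343, 5980 and 6148 counts in worms kept 10 per plate against 4795, 5513 and 5756 in solitary worms. Its log2 fold change of 0.15 ± 0.05 (SE; edgeR adjusted p = 0.231) was 0.08 with the length trend removed.

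The true Patched genes differed in level more than between conditions. ptc-1, which acts in germline cytokinesis, stood at 177 ± 15.9 CPM per exonic kilobase in worms kept 10 per plate and 169 ± 9.42 in solitary worms (SD, n = 3 each), the level range of ptr-2. ptc-3, needed for molting, stood at 2.64 ± 0.469 in worms kept 10 per plate and 2.48 ± 0.405 in solitary worms. Their log2 fold changes were 0.07 ± 0.07 and 0.09 ± 0.15 (SE; edgeR adjusted p = 0.756 and 0.876), and that of ptc-1 was -0.03 with the length trend removed.

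qua-1, the Quahog gene, which carries a Hog domain and is needed for molting, had 191, 170 and 209 counts in worms kept 10 per plate against 121, 399 and 122 in solitary worms, with solitary library 2 far above the rest. daf-6, a patched-related gene that shapes the glial channel of sense organs, had 21, 24 and 48 counts in worms kept 10 per plate against 19, 38 and 23 in solitary worms. tra-1, the Gli-family transcription factor of sex determination, had 1527, 1468 and 1289 counts in worms kept 10 per plate against 1030, 1233 and 1406 in solitary worms, with a log2 fold change of 0.17 ± 0.09 (SE; edgeR adjusted p = 0.517), or 0.07 with the length trend removed.

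In the genome, 32 of the 82 members (39.0%) lie on chromosome V, which holds 25.1% of protein-coding genes, and 19 of those are Ground-like genes. With a window of 20000 bases, 20 members fall into 8 groups of neighbours. wrt-1 (chromosome II, 7530996 to 7533246, plus strand) and wrt-10 (7533262 to 7534563, minus strand) end 15 bases from each other on opposite strands, and they differed in their order of libraries, with wrt-10 at 316 counts and wrt-1 at 5 in solitary library 1. grd-13, grd-3 and grd-10 follow each other on chromosome IV with gaps of 147 and 601 bases. grd-3 averaged 21.4 CPM per exonic kilobase, while its neighbours had at most 60 counts in any library.

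Whether the counting used strand is not given in the sources used here, and without it, reads of overlapping genes on opposite strands cannot be told apart. Exons of 29 members overlap those of a gene on the opposite strand, by 10 to 191 bases, and exons of 5 overlap a gene on the same strand. The longest such overlap is that of wrt-3, which shares 1002 bases with a pseudogene, so its counts are uncertain.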

How the data were processed

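The authors trimmed reads with Trimmomatic 0.36, aligned them to WBcel235 with STAR 2.5.2b and counted reads per gene with featureCounts (Subread 1.5.2), and the raw counts per gene were used as deposited. Symbols come from the table, and lengths and positions from the Ensembl annotation of the same assembly. In R 4.3.3, genes whose counts summed to 10 or more across the 6 libraries entered edgeR 4.0.16 (TMM scaling, glmQLFit, glmQLFTest, limma 3.58.1), and p-values were adjusted by Benjamini-Hochberg over all tested genes, at a threshold of 0.05. Growth condition was the only term. Standard errors were computed as the size of the log2 fold change over the square root of edgeR's F, an approximation. A trend on log exonic length was estimated in each library by lowess (span 0.3) over genes averaging at least 100 counts. It was fitted to a gene's log2 CPM relative to its mean over the 6 libraries. The fitted trends entered edgeR as offsets. On simulated counts, 173 of 200 genes changed 2.5-fold were recovered (86.5%), with 21 false calls among 18428 genes. The changed genes averaged at least 20 counts, and no length trend was put into these counts. The recovery therefore does not cover the 27 tested members that averaged under 20 counts. For the other members it was not measured apart from all genes. At a mean count of at least 10, members had a median within-condition SD of 0.350, against 0.128 for all genes. Alternatives were DESeq2 1.42.0, other scalings and count filters, a replicate block and leaving out each library. The members and gene lists were chosen with earlier results of these data known. Named are the 5 tested members with the smallest p in each direction, the 4 most abundant per family, hog-1, members with described roles, and pathway genes; others are said to be chosen after their values were seen. No sequences are printed, as no sequence table was used here.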

Additional observations from a re-analysis of the deposited data

How the results depend on the processing

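Of all tested genes 44 were called, and 33 with DESeq2's size factors in edgeR, 7 with total counts in place of TMM, 435 with DESeq2's Wald test, 745 with no count minimum, 17 with edgeR's filterByExpr, 0 with the length trend removed, 24 with a replicate block and 2 when a log2 fold change above 1 was also asked for. Leaving out each library gave 0 to 391 (391 without solitary library 3). Members called were 0 under these settings, except 1 (grl-4) with no count minimum and 0 to 1 when leaving out a library (grl-4 without solitary library 3). Members at an unadjusted p under 0.05 numbered 5, against 3 with DESeq2, 8 with no minimum, 3 with the length trend removed and 3 with the replicate block, and 1 to 13 when leaving out a library (13 without solitary library 2). Whether same-numbered libraries were paired is not given in the sources used here, and correlations of gene deviations cannot show how samples were collected. Same-numbered libraries deviated from their condition with correlations of 0.137, -0.280 and -0.276. Differently numbered pairs ran from -0.155 to 0.376 across 10491 genes. The highest was library 3 of the 10-worm plates with solitary library 2, the libraries that were both highest for many members. Library 2 of the 10-worm plates with solitary library 3 gave 0.284. The cause of the moves between settings was not tested.

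With the length trend removed the log2 fold change turned to 0.0063 for grd-14, -0.023 for ptr-2, -0.0067 for ptr-23 and -0.033 for ptc-1, and with the replicate block to 0.0043 for qua-1. Leaving out each library turned the sign of wrt-3 (-0.27 to 0.014), grd-3 (-0.35 to 0.020), grd-14 (-0.54 to 0.16), grl-22 (-0.10 to 0.36), ptr-23 (-0.019 to 0.13), wrt-6 (-0.58 to 0.39), grl-18 (-0.12 to 0.35), qua-1 (-0.48 to 0.55), ptc-1 (-0.0078 to 0.12), ptc-3 (-0.066 to 0.18) and daf-6 (-0.30 to 0.47), none of them called. With coding in place of exon length, an alternative chosen after seeing the data (the planned one, on another protein table, was not run), summed levels in worms kept 10 per plate and solitary worms were 31.4 and 32.2 for the Warthogs, 64.9 and 74.3 for the Groundhogs, 21.97 and 23.2 for the Ground-like genes and 210 and 206 for the patched-related genes. Depth limits the 27 tested members that averaged under 20 counts, whose fold changes carry wide errors.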
